A study of Mus musculus with 6 samples.

Results

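Transcripts of the Sprr genes, which encode the small proline-rich proteins, were measured by RNA sequencing in mouse gingiva, the mucosa around the teeth. The 10 genes described here are Sprr1a, Sprr1b, Sprr2b, Sprr2d, Sprr2e, Sprr2f, Sprr2g, Sprr2h, Sprr2k and Sprr3, chosen by symbol from 48709 genes in the count table. The table holds 7 further rows with an Sprr symbol. All libraries came from C57BL/6 mice aged 12 weeks, 3 labelled Plg KO, for mice deficient in plasminogen, and 3 labelled Plg WT, for wild-type littermates. Plasminogen is the precursor of plasmin, the protease that dissolves fibrin, and the title of the series concerns fibrin and neutrophils in mucosa. The sources used here do not give the Plg allele, and they do not say whether each library came from a separate animal. If not, the p-values cover only library spread, which may be technical.

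Sprr proteins are short, rich in proline and glutamine, and are joined by transglutaminases into the cornified envelope, the protein shell beneath the membrane of the outermost keratinocytes. Sprr1 and Sprr3 proteins act as cross-bridges in internal stratified epithelia such as mouth and oesophagus, and the Sprr2 genes form a larger set of close copies whose members are used differently from tissue to tissue. Sprr transcripts are known to be induced by wounding, inflammation and other stress in epithelia. The genes lie together in the epidermal differentiation complex, beside loricrin, involucrin and the late cornified envelope genes.

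In gingiva of Plg KO mice, Sprr2e rose 5.01-fold and Sprr2f rose 3.36-fold, and Sprr2d, Sprr2g and Sprr2h, which lie beside them, were also higher in every Plg KO library than in any Plg WT library. Sprr1a, Sprr1b, Sprr3 and Sprr2k, at the far end of the same cluster, had overlapping groups. A gene was called at a Benjamini-Hochberg adjusted p under 0.05 over 17757 tested genes in the quasi-likelihood test of edgeR. By that rule 2 of the 10 were called higher, against 0.191% of all tested genes. None was called lower (0 by DESeq2 and limma-voom, and 0 with a negative change at an unadjusted p under 0.05), against 0.0451% of all tested genes by edgeR and 0.721% by DESeq2. An unadjusted p under 0.05 was reached by 6 of the 10, all higher, against 4.97% of tested genes higher and 9.25% in either direction. All 10 log2 changes were positive, as were 49.2% over all tested genes. Groups did not overlap in 6 of the 10, all with Plg KO above Plg WT, against 7.51% of all tested genes with that order and 7.18% with the reverse. The median log2 change of the 10 was 1.16, against -0.00 for all tested genes. These counts and the median include Sprr2b, which passed the filter on low counts only through its Plg KO libraries, where it is high. Over the other 9 genes, 5 reached an unadjusted p under 0.05, 5 had groups apart, and the median was 0.85.

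The sequences just upstream of the genes are shown because neighbouring Sprr2 copies share the kinds of short element marked below yet differed in level and in change. RefSeq windows on GRCm38.p6, from 250 bases before to 50 after the gene start, were found for 9 of the 10 genes, all but Sprr2g. Printed are the 200 bases before the start, 5′ to 3′ on the gene's own strand. Capitals mark TGANTCA (the AP-1 site, bound by Fos and Jun proteins), ATTTGCAT (the octamer, bound by POU factors) and TATAAA (the TATA box).
Sprr2e (chr3:92351943-92352142, plus strand): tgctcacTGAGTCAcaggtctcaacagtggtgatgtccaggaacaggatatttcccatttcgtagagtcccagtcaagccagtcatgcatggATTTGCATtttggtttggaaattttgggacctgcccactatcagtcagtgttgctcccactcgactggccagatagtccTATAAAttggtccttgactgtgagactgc
Sprr2f (chr3:92364987-92365186, plus strand): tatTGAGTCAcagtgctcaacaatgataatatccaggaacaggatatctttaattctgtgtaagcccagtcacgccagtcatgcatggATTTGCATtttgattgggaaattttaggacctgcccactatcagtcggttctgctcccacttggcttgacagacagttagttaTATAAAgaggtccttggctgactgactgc
Sprr2d (chr3:92338940-92339139, plus strand): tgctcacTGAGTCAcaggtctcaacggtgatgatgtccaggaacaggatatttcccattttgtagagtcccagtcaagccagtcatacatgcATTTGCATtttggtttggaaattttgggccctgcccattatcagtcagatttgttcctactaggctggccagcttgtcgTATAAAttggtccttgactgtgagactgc
Sprr2h (chr3:92385485-92385684, plus strand): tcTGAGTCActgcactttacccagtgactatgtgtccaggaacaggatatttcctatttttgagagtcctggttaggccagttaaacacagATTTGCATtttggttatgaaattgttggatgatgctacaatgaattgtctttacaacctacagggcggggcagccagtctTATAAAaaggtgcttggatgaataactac
Sprr2k (chr3:92432382-92432581, plus strand): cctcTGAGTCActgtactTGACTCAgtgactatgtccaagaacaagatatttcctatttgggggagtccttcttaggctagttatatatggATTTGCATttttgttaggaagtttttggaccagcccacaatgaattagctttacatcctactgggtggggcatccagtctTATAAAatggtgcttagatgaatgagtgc
Sprr1a (chr3:92485882-92486081, minus strand): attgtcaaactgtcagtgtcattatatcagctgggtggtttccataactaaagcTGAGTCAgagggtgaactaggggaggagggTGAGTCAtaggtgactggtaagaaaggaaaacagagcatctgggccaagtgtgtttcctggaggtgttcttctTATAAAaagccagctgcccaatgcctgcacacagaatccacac
Sprr3 (chr3:92458721-92458920, minus strand): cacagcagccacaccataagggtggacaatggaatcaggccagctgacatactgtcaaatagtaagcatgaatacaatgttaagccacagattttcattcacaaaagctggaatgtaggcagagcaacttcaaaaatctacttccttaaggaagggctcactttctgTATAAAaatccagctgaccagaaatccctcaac

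TGANTCA, searched over the 300-base windows on both strands, occurred in 8 of the 9 windows, the exception being Sprr3, against 7.81% of 32851 mouse promoter windows of this length. The octamer stood in all 6 Sprr2 windows of the set and in none of the Sprr1a, Sprr1b and Sprr3 windows, against 1.74% of all windows. TATAAA was present in 9 of 9, against 13.6%. In each of the 6 Sprr2 windows an AP-1 match began 193 to 198 bases before the start, the octamer 108 to 112 bases before it and the TATA box 29 bases before it. A pair of AP-1 matches stood in Sprr2k, at 196 and 182 bases before the start, and in Sprr1a, at 146 and 116 bases. Further searches were for TTCNNNGAA (STAT factors), the interferon response core (GAAA and GAAA, 2 bases apart) and CCACCC (Krüppel-like factors), with 0, 0 and 5 of 9 windows holding them, against 8.30%, 3.44% and 31.5% of all windows. CCACCC, not marked in the printed sequences, stood in Sprr1a, Sprr1b, Sprr2b, Sprr2k and Sprr3. It was absent from Sprr2d, Sprr2e, Sprr2f and Sprr2h. Outside the set it was also absent from Sprr2i and Sprr2a3, whose groups overlap, while Sprr2b, which holds it, had groups apart. Any part of CCACCC in the change of these genes was not tested. The copies descend from one another, so these windows are not independent, and a match in letters is a description, not a bound site.

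The library totals ran from 26183389 to 36429150 gene counts. Plg, a gene expressed mainly in liver, had only 2 counts in each group, so it gives no check of the labels. Keratinocyte genes were abundant throughout. The summed level of 14 basal keratinocyte genes was 18450 to 20170 CPM (counts scaled by library size and TMM factor) in Plg WT against 16920 to 19680 CPM in Plg KO, and that of 12 suprabasal keratins 25910 to 34490 CPM and 28130 to 34900 CPM. In bulk tissue, fewer cells of a type and less RNA per cell cannot be told apart. Counts of the Y-linked Ddx3y were 1475 (Plg WT 3), 1838 (Plg KO 1) and at most 2 elsewhere, so each group held 1 library with it.

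**Figure D1:**
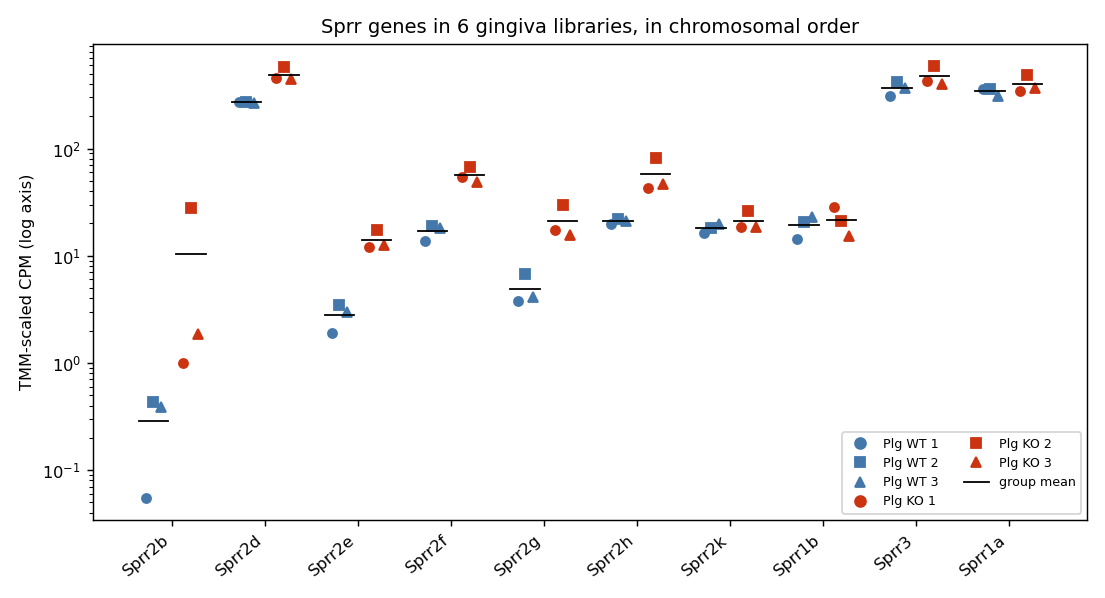
TMM-scaled CPM (log axis) of the 10 Sprr genes in each of the 6 libraries, in chromosomal order, with Plg WT in blue, Plg KO in red, a marker shape per replicate and a bar at the group mean. For Sprr2e all Plg KO libraries lie at 12.0 CPM or more and all Plg WT libraries at 3.46 CPM or less, whereas the groups overlap for Sprr2k, Sprr1b, Sprr3 and Sprr1a.

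Levels between genes were compared per kilobase of annotated exon. In Plg WT, Sprr1a (426 ± 35.5 CPM per kb, SD, n = 3), Sprr2d (397 ± 5.02) and Sprr3 (298 ± 45.9) were far above the rest. These 3 genes together made up 91.4% to 93.1% of the counts of the 10 genes in the Plg WT libraries. Sprr2k, Sprr2f, Sprr2h and Sprr1b followed at 23.3 to 28.3 CPM per kb, and neighbours in that order did not differ beyond their spread. Sprr2g (7.47 ± 2.48) and Sprr2e (4.30 ± 1.23) were lower, and Sprr2b was lowest at 0.369 ± 0.261. In Plg KO, Sprr2d came first (717 ± 106 CPM per kb), Sprr2f moved ahead of Sprr2k, and the 3 abundant genes made up 85.8% to 88.3% of the counts. Highest and lowest gene differed 1156-fold in Plg WT against 54.4-fold in Plg KO, the latter through Sprr2b, whose Plg KO level rested on 1 library.

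Sprr2e, which encodes one of the Sprr2 envelope proteins, had 1.91, 3.46 and 2.98 CPM in Plg WT 1, 2 and 3 and 12.0, 17.2 and 12.5 CPM in Plg KO 1, 2 and 3. Every Plg KO library was thus more than 3 times the highest Plg WT library. These levels rest on 70 to 97 counts per Plg WT library and 444 to 446 per Plg KO library. The log2 change was 2.32 ± 0.26 (SE), and edgeR's test gave an adjusted p of 0.0245. Sprr2e lies at GRCm38 chromosome 3, 92352143 to 92353449, plus strand.

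Sprr2f, its downstream neighbour (92365187 to 92366442, plus strand), had 13.7, 18.9 and 18.1 CPM in the Plg WT libraries and 53.7, 67.9 and 48.8 CPM in the Plg KO libraries. Its lowest Plg KO value was above its highest Plg WT value by more than the whole range of either group. The log2 change was 1.75 ± 0.17, and edgeR's test gave an adjusted p of 0.0198. Both calls depended on which libraries entered the fit. With edgeR, none of the 10 genes was called when Plg WT 2, Plg WT 3, Plg KO 2 or Plg KO 3 was left out, when 1 or 2 genes of all tested were called higher, while the log2 change stayed at 2.11 to 2.51 for Sprr2e and 1.60 to 1.84 for Sprr2f over all 6 such fits. A test of changes above 1.5-fold also called neither (adjusted p = 0.0806 and 0.0804 in edgeR's glmTreat).

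Sprr2d, the abundant Sprr2 gene of this tissue, had 271, 273 and 266 CPM in Plg WT against 453, 571 and 441 CPM in Plg KO. The Plg WT libraries lay within a few CPM of each other and the Plg KO libraries stood well above them. Its mean went from 270.0 ± 3.42 to 488 ± 72.0 CPM, with a log2 difference of 0.85 ± 0.12 that missed the threshold in edgeR's test (adjusted p = 0.0538). Sprr2g, annotated as a polymorphic pseudogene, had 3.74, 6.71 and 4.13 CPM against 17.2, 29.9 and 15.6 CPM. Its log2 difference of 2.11 ± 0.32 had an adjusted p of 0.0696 in edgeR's test. Sprr2h had 19.9, 21.8 and 20.9 CPM against 43.2, 82.3 and 46.5 CPM, a log2 difference of 1.46 ± 0.24 (edgeR, adjusted p = 0.0871). For all 3 genes the groups were apart, and DESeq2 called each of them, so that its count was 5 of 10, against 1.54% of all tested genes that DESeq2 called higher.

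The genes from Sprr2d to Sprr2h, in the order d, e, f, g, h, are 5 adjacent genes in 48.2 kb (chromosome 3, 92339140 to 92387324), with no other tested gene between them. They were also the 5 with an adjusted p under 0.10 in edgeR's test, where 0.535% of all tested genes were called higher. On the near side lies Sprr2b and on the far side Sprr2i and Sprr2j-ps, then Sprr2k and the minus-strand genes Sprr1b, Sprr3 and Sprr1a. No test of position was made.

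**Figure D2:**
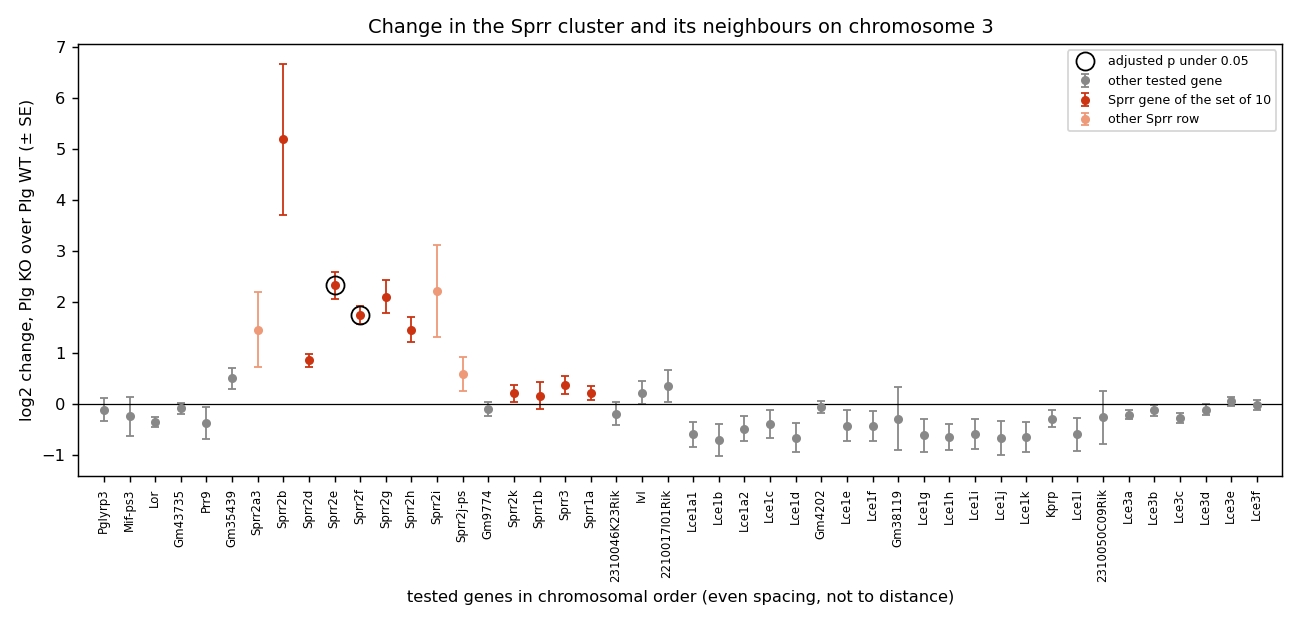
Log2 change (Plg KO over Plg WT, ± SE of the edgeR fit) of each tested gene from 500 kb before to 500 kb after the Sprr genes, evenly spaced in chromosomal order; red points are the 10 Sprr genes, pale red the other tested Sprr rows, grey all other genes, and rings mark an adjusted p under 0.05. The Sprr2 genes sit between 0.21 and 5.18, whereas most of the 33 other genes lie at or below 0.

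Sprr2b had 0.0546, 0.428 and 0.384 CPM in Plg WT against 0.999, 28.2 and 1.85 CPM in Plg KO. In counts these were 2, 12 and 12 against 37, 725 and 66, so Plg KO 2 alone held most of its reads. The log2 difference was 5.18 ± 1.49 with all libraries (edgeR, adjusted p = 0.297) and 2.32 without Plg KO 2 (adjusted p = 0.683). DESeq2 gave no adjusted p for this gene. It passed the filter on low counts only through its Plg KO libraries.

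Sprr2k, the last of the Sprr2 row, had 16.3, 18.0 and 19.7 CPM in Plg WT against 18.33, 26.03 and 18.35 CPM in Plg KO. Apart from Plg KO 2 its libraries mixed, with a log2 difference of 0.21 ± 0.17 (edgeR, adjusted p = 0.764). Its upstream window is 81.8% identical to that of Sprr2h. Per kilobase the Sprr2h level was 1.03, 1.03 and 0.895 times that of Sprr2k in the Plg WT libraries and 1.997, 2.679 and 2.148 times in the Plg KO libraries. Sprr2d and Sprr2e, whose windows are 89.1% identical, differed both in level and in change. Sprr2d was 134.8, 74.8 and 84.9 times Sprr2e per kilobase in Plg WT against 35.9, 31.5 and 33.5 times in Plg KO. These ratios were not tested, and their groups do not overlap.

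Sprr1a and Sprr3, abundant transcripts that encode cross-bridging proteins, were not called, and their groups overlap. Sprr1a had 363, 357 and 311 CPM in Plg WT against 347, 483 and 368 CPM in Plg KO, a log2 difference of 0.22 ± 0.15 (edgeR, adjusted p = 0.725). Sprr3 had 307, 419 and 368 CPM against 425, 593 and 396 CPM, a log2 difference of 0.37 ± 0.18 (edgeR, adjusted p = 0.617). In both genes only Plg KO 2 stood clearly above the Plg WT range. Sprr1b had 14.3, 20.8 and 22.8 CPM against 28.7, 21.01 and 15.3 CPM, and its log2 difference of 0.16 ± 0.26 (edgeR, adjusted p = 0.909) changed sign when Plg WT 1 (-0.01) or Plg KO 1 (-0.10) was left out. A p that misses the threshold does not show that these genes were equal in both groups.

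The make-up of the family shifted with these differences. Sprr2f was 1.36% to 1.75% of the summed CPM of the 10 genes in Plg WT against 3.54% to 3.84% in Plg KO. Sprr2h was 1.92% to 2.02% and 3.09% to 4.29%, and Sprr2e 0.189% to 0.304% and 0.857% to 0.916%. Sprr1a went the other way, at 30.0% to 35.9% and 24.8% to 27.0%. Summed over the 10 genes, the level was 1010, 1139 and 1034 CPM in Plg WT against 1399, 1920 and 1364 CPM in Plg KO, a ratio of group means of 1.47.

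Close copies can share reads, and the sources used here do not say how the authors' counting treated such reads. In GENCODE M21 transcripts, the share of 37-base words, the length of 1 read, that also occur in another gene was 24.8% for Sprr2b, 16.7% for Sprr2e, 6.51% for Sprr2d, 3.66% for Sprr2f, 1.18% for Sprr2h and 0.614% for Sprr2g. It was 0 for Sprr2k, Sprr1a, Sprr1b and Sprr3. Sprr2b shared words mostly with Sprr2a1, Sprr2a2 and Sprr2a3, and Sprr2e mostly with Sprr2i (86 of 611 words). The sum over all Sprr2 rows does not depend on how counted reads were divided among them. It misses any shared reads that the counting left out, and whether any were is not known. It was 340, 370 and 373 CPM in Plg WT against 641, 984 and 613 CPM in Plg KO, so the groups were apart, with a ratio of group means of 2.07, or 1.74 without Plg KO 2.

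Plg KO 2 was the highest library for 9 of the 10 genes, against 14.8% of all tested genes, and Sprr1b was the exception. Plg WT 1 was the lowest library for 8 of the 10, and the share over all tested genes was not counted. The level in Plg KO 2 was 1.28 to 1.83 times the mean of the other Plg KO libraries for the genes from Sprr2d to Sprr2h and 19.8 times for Sprr2b. The same library was highest in the summed level of 10 neutrophil markers, at 587 CPM against 298 and 222 CPM in Plg KO 1 and 3 and 91.6 to 135 CPM in Plg WT. All 9 tested neutrophil markers had groups apart with Plg KO higher, against 7.51% of all tested genes. None was called by edgeR, with 9 at an unadjusted p under 0.05 and higher (4.97% of all tested genes), while DESeq2 called 7 (1.54% of all tested genes) and limma-voom 0. The 9 include Retnlg, at 0.137, 0.321 and 0.256 CPM in Plg WT against 1.296, 7.07 and 3.473 CPM in Plg KO. Retnlg passed the filter on low counts only through its Plg KO libraries, where it is high. No marker was at 0 counts over either group. The part of this in the Sprr values was not tested. Without Plg KO 2, the log2 difference was 0.73 for Sprr2d, 2.14 for Sprr2e, 1.60 for Sprr2f, 1.76 for Sprr2g and 1.11 for Sprr2h.

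**Figure D3:**
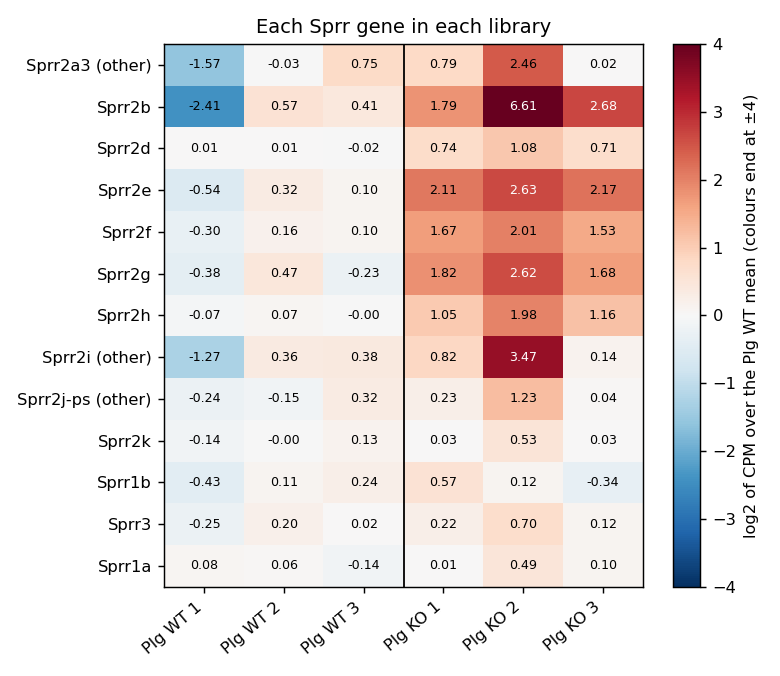
Log2 of each library's CPM over the Plg WT mean, for the 13 tested Sprr rows (rows, in chromosomal order; "other" marks rows outside the set of 10) and the 6 libraries (columns), with colours ending at ±4. Plg KO 2 is the reddest column, at 6.61 for Sprr2b and 3.47 for Sprr2i, and the rows from Sprr2d to Sprr2h are red in all 3 Plg KO libraries.

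The remaining Sprr rows lean on the same library. Sprr2i had 2.48, 7.68 and 7.82 CPM in Plg WT against 10.6, 66.4 and 6.58 CPM in Plg KO, and its log2 difference of 2.22 ± 0.90 (edgeR, adjusted p = 0.504) was 0.52 without Plg KO 2. Sprr2a3 had 4.83, 14.1 and 24.2 CPM against 24.8, 79.0 and 14.6 CPM, with log2 differences of 1.46 ± 0.73 and 0.46. Sprr2j-ps had 5.70, 6.07 and 8.39 CPM against 7.86, 15.8 and 6.92 CPM, with 0.59 ± 0.33 and 0.14. None of these was called, and in each the groups overlap. Sprr2a1, Sprr2a2, Sprr2c-ps and Sprr4 had at most 5 counts in any library and were not tested. Of the words in Sprr2a1 and Sprr2a2, 96.7% and 97.4% occur in another gene, so their low counts do not show that they are silent.

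The Sprr genes were set beside the rest of their chromosomal cluster. Among 33 other genes tested within 500 kb on either side, edgeR called 0, and 0 were called by DESeq2 or limma-voom. An unadjusted edgeR p under 0.05 was reached by 6, of which only Gm35439 was higher, against 9.25% of all tested genes in either direction. The median log2 change of the 33 was -0.28. Lor, which encodes loricrin, a main envelope protein of the epidermis, had 408, 421 and 402 CPM in Plg WT against 318, 302 and 346 CPM in Plg KO, below it in every library. Its log2 difference was -0.35 ± 0.09 (edgeR, adjusted p = 0.253). Of 25 tested late cornified envelope and fused S100 genes, 1 had a positive log2 change, 0 were called (also 0 by DESeq2 or limma-voom), and the median was -0.42. In that list an unadjusted edgeR p under 0.05 was reached by 4, all lower, against 9.25% of all tested genes in either direction. Most of the 25 are also among the 33 neighbours, so these medians are not separate results. Lce3c, the member with the smallest p, had 647, 632 and 731 CPM against 563, 548 and 561 CPM.

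Partners of the Sprr proteins in the envelope showed no call. Of 18 scaffold and cross-linking genes, which include the transglutaminases Tgm1, Tgm3 and Tgm5, edgeR called 0 (at an unadjusted p under 0.05, 3 higher and 1 lower; DESeq2 called 1 and limma-voom 0), and the median log2 change was -0.01. The members with the smallest p were Anxa1, a calcium-dependent membrane-binding protein, at 0.65 ± 0.13, Lor, and the protease inhibitor Cstb at 0.33 ± 0.09. The 4 keratins induced by wounding, Krt6a, Krt6b, Krt16 and Krt17, had negative log2 differences with 0 called or at an unadjusted p under 0.05 (0 by DESeq2 or limma-voom) and a median of -0.06. Krt6a had 3676 ± 362 CPM in Plg WT against 3144 ± 570 CPM in Plg KO, and Krt16 3418 ± 384 and 3235 ± 419 CPM. The suprabasal keratins had 0 of 11 called (1 lower at an unadjusted p under 0.05, 0 by either DESeq2 or limma-voom) and a median of -0.28. Krt76, of the palate and gingiva, had 5306 ± 799 and 4004 ± 1182 CPM.

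Calls among related lists fell on the basement membrane and on cytokines. Of 14 basal keratinocyte genes, 3 were called higher, among them Lama3 (2.48-fold) and Lamb3 (1.74-fold), which encode laminin chains of the basement membrane. In that list an unadjusted p under 0.05 was reached by 7 higher and 2 lower genes, DESeq2 called 3 higher and 1 lower, limma-voom called 3, and the median was 0.12. Of 13 tested cytokines and EGF family ligands known to act on keratinocytes, 2 were called higher, Il1b (7.22-fold) and Osm (8.08-fold). The median log2 change of this list was 1.37. Osm had 0.2729, 0.2499 and 0.3204 CPM in Plg WT against 1.485, 3.302 and 2.157 CPM in Plg KO. It passed the filter on low counts only through its Plg KO libraries, where it is high. The count of 2 and the median include Osm. Of these 13 genes, an unadjusted p under 0.05 was reached by 9, all higher, DESeq2 called 9 and limma-voom 1. Shares over all tested genes are those given for the Sprr genes, 0.191% called higher by edgeR and 1.54% by DESeq2. At an unadjusted edgeR p under 0.05 these shares are 4.97% higher and 9.25% in either direction. The calls of Lama3, Lamb3, Il1b and Osm were each lost when Plg WT 2, Plg WT 3, Plg KO 2 or Plg KO 3 was left out, and Lamb3 also without Plg KO 1, with adjusted p up to 0.117 for Lama3, 0.175 for Lamb3, 0.117 for Il1b and 0.266 for Osm over the 6 such edgeR fits. None of the 4 was called for changes above 1.5-fold, and Osm was not called by limma-voom (adjusted p = 0.105). The EGF receptor ligand Tgfa had 15.1 ± 1.94 CPM in Plg WT against 25.97 ± 2.57 CPM in Plg KO (edgeR, adjusted p = 0.0918). In the same list Il17a, Il20 and Il22 had 0 counts in every library, which allows up to 0.0824 to 0.115 CPM per library for counting error alone.

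The 26 tested transcription factors of keratinocyte differentiation include the AP-1 subunits Fos, Fosl1, Jun and Junb and the POU factors Pou2f1 and Pou2f3. Of the 26, edgeR called 0, as did DESeq2 and limma-voom, and the median log2 change was -0.02. An unadjusted edgeR p under 0.05 was reached by 3, all higher, against 4.97% of all tested genes higher. The smallest p values belonged to the ETS factors Ehf and Elf3. Ehf had 179, 166 and 167 CPM in Plg WT against 200, 198 and 210 CPM in Plg KO, a log2 difference of 0.25 ± 0.08 (edgeR, adjusted p = 0.376) with groups apart. Elf3 had 33.7 ± 6.90 and 48.8 ± 11.9 CPM, and its groups overlap. Transcript levels of a factor do not measure its activity.

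**Figure D4:**
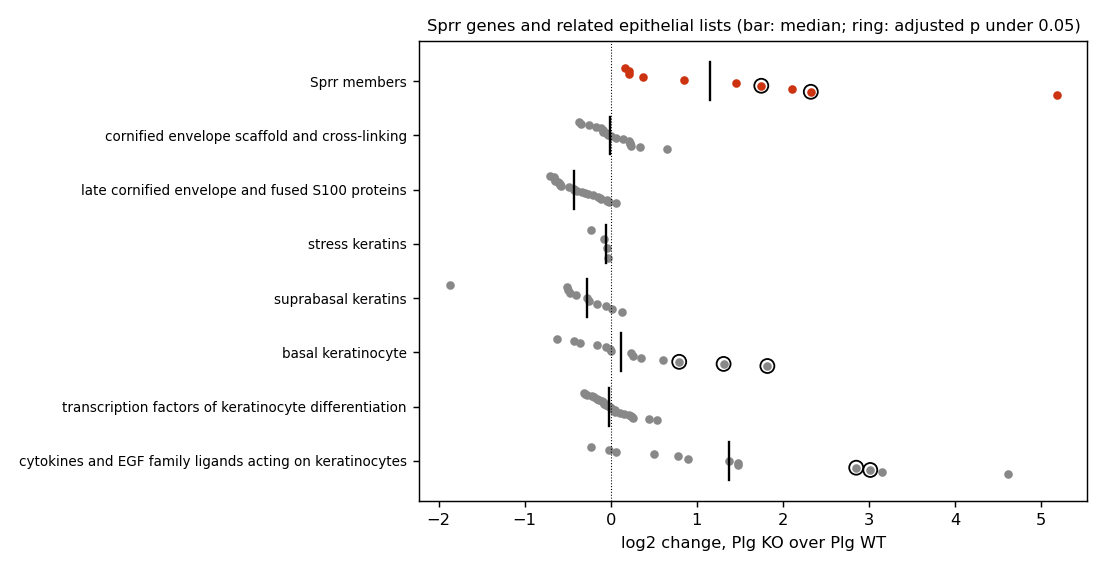
Log2 change (Plg KO over Plg WT) of every tested gene in the Sprr set and in 7 related lists; each point is a gene, the bar is the list's median and rings mark an adjusted p under 0.05. The Sprr genes range from 0.16 to 5.18 with a median of 1.16, or 0.855 without Sprr2b. Sprr2b, at 5.18, passed the filter on low counts only through its Plg KO libraries. The medians of the cornified envelope, keratin, basal keratinocyte and transcription factor lists lie between -0.42 and 0.12. That of the cytokine list is 1.37 and includes Osm, which passed the filter in the same way.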

How the data were processed

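Total RNA from gingiva was sequenced in 6 libraries as 37 bp paired-end reads after Nextera XT preparation, per the labels' protocols. STAR 2.5.2a, edgeR, limma and DESeq2 with builds GRCm38.p3 and mm10 are named, with no role or order, per the submitters' processing notes. The counting tool, annotation and handling of shared reads are not stated in these sources. The deposited raw counts per gene covered 48709 genes, and 22 entries naming no gene (at most 3.55e-05% of a library) were left out. The deposited CPM values, TMM-scaled by the authors, gave whole reads for 100% of values within 0.01 read, equal to the raw counts. A count test on them called the same number of genes, 34 higher and 8 lower. Symbols came from the CPM table for 21658 identifiers and from GENCODE M21 for 26691 more, and positions and exon lengths from GENCODE M21 (GRCm38).

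Calls rest on edgeR 4.0.16 (R 4.3.3), fitted with TMM, filterByExpr (17757 genes, all 10 Sprr genes among them), genotype alone in the design, the quasi-likelihood F test and Benjamini-Hochberg adjustment over all tested genes. CPM in the text is on this fit's TMM scale, given as mean ± SD, and the SE of a log2 change is the change over the square root of its F value. Library pairs differed beyond sampling noise (chi-square per degree of freedom 21.4 to 111), so none was treated as a copy. Libraries did not all group by label. In log CPM, Plg WT 1 correlated at 0.9808 with Plg KO 3, against 0.977 with Plg WT 2 and 0.9722 with Plg WT 3. Other tests were DESeq2 1.42.0 and limma 3.58.1 (voom, and trend on log2 CPM plus 0.5 or 2). The scripts were tested on simulated data. Members and lists were chosen with earlier results of these data known, and the motifs after the promoters were seen. Genes named from a list are those called and among the 3 with the smallest p, and other list members are named without values. Some genes that this rule names are not reported here. Of the list symbols, 3 cytokines and 1 hair keratin were not matched. Promoter identity is from global alignment over the aligned length.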

Additional observations from a re-analysis of the deposited data

How the results depend on the processing

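For the 10 Sprr genes, the count called higher was 2 with RLE or upper-quartile factors, a filter of 1 CPM in 3 libraries, limma-voom, limma-trend on deposited CPM with a pseudocount of 0.5 or 2, the Xist level as a covariate, removal of the 10 most abundant other genes, and reads recovered from CPM, an alternative chosen after seeing the data. In those fits 0.175% to 0.304% of all tested genes were called higher. The Sprr count was 5 with DESeq2 (1.54% of all tested genes) and 5 with no filter on low counts (0.384%). It was also 5 at an adjusted p under 0.10 (0.535%), and 0 for changes above 1.5-fold (4 genes of all tested called higher). With the replicate number as a block it was also 0, and 2 genes of all tested were called higher. The numbers are not shown to pair the libraries, since deviations of same-numbered libraries correlated at -0.26, -0.01 and -0.23. Leaving out 1 library gave 0 to 3. The 3 came without Plg WT 1, where 1.02% of all tested genes were called higher. Without Plg KO 1 it was 2, where 0.178% were. No alternative called a Sprr gene lower. Of 199 alternative values for these genes, 2 had another sign, both for Sprr1b, whose log2 change ran from -0.10 to 0.36 with 1 library left out. The looser threshold, the test above 1.5-fold and the recovered reads keep the main log2 change. Their values among the 199 could therefore not change sign. Among the genes named from lists, sign also changed with a library left out for Krt16 (-0.1696 to 0.0198), Krt17 (-0.24 to 0.0536), Krt31 (-1.026 to 0.00784) and Krt27 (-0.13 to 0.25). The ratio of summed counts was 1.45 to 1.47 for the 10 genes and 2.03 to 2.07 for the Sprr2 rows under other scalings, and 1.302 to 1.564 and 1.74 to 2.25 with 1 library left out. Lama3, Lamb3 and Il1b kept their calls under limma-voom and limma-trend, Osm did not (adjusted p = 0.105, 0.0508 and 0.0809), and none of the 4 was called with the replicate block. Sprr2b had 26 counts over Plg WT, and 725 of its 828 Plg KO counts were in Plg KO 2.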

Other observations

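Several families and markers not described above were counted in the same fit. Of 10 fibroblast markers all had a negative log2 change, with a median of -0.45 and 0 called by edgeR, DESeq2 or limma-voom. An unadjusted edgeR p under 0.05 was reached by 6, all lower, against 9.25% of all tested genes in either direction. Pdgfra, the receptor that marks fibroblasts, had 9.98 ± 0.675 CPM in Plg WT against 5.99 ± 1.72 CPM in Plg KO, with the groups apart. The summed salivary gland markers were 1271 CPM in Plg WT 1, 249.2 and 281.6 CPM in the other Plg WT libraries, against 767 to 1281 CPM in Plg KO, and the summed skeletal muscle markers ran from 2421 CPM in Plg KO 1 to 11130 CPM in Plg KO 3. Their part in the Sprr values was not tested. Hair follicle keratins summed to at most 2.13 CPM in any library. The macrophage list had 0 of 10 called (1 lower at an unadjusted p under 0.05, 0 by DESeq2 or limma-voom).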
